A study of Danio rerio with 6 samples.

Results

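Described here are the genes of chemokines, interleukins and their receptors in the adult zebrafish brain, chosen as those whose zebrafish symbol begins with ccl, cxcl, ccr, cxcr, xcr or il followed by a digit. By that rule 108 of the 23678 genes in the deposited table were members, and 105 of them had a mean value of at least 1 over the 6 libraries and were tested. The 3 members below that minimum were ccl19a.2, ccl38a.5 and cxcl18a.1. By role the members were 40 chemokines (37 tested), 20 chemokine receptors, 20 interleukins, 24 interleukin receptor chains, 3 IL1RAPL genes and il4i1, which is an enzyme gene that the symbol rule picks up.

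The RNA came from whole brains of adult zebrafish. The C246X group was homozygous for a CRISPR/Cas9 premature stop in chrna3, which encodes the alpha3 subunit of nicotinic acetylcholine receptors on neurons, and the WT group carried no such allele. Each genotype had 3 libraries, and neither the strain, the sex, the age beyond adulthood nor the number of fish behind a library is stated in the sources used here, so every p-value rests on the spread among these libraries alone, which may be technical. A deposited value is an estimated read number divided by 1 scaling factor of its library, not corrected for gene length, so values are compared between libraries and not between genes. Errors of means are SDs of 3 libraries. A log2 fold change is the C246X mean minus the WT mean of log2(value + 1), a scale that understates the change of low genes. A gene was called, that is, it rose, fell or passed, when limma with Benjamini-Hochberg adjustment over the 23104 tested genes gave an adjusted p under 0.05.

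Chemokines and interleukins are the secreted messengers by which immune cells find each other, divide and change state, and each acts through receptors on the surface of the responding cell. Chemokines signal through receptors of the G-protein-coupled family and steer migration along their gradients, whereas most interleukin receptors pair a ligand-binding chain with a shared signalling chain that activates JAK kinases and STAT factors. In the brain, microglia, perivascular macrophages and the few resident lymphocytes carry many of these receptors, neurons and glia release some of the ligands, and a small number of genes with interleukin-receptor names work at synapses instead.

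Library sums of the deposited values lay between 25655952 and 26794838. As judged from the spacing of low values, 1 read was worth 0.996 to 1.06 units, depending on the library. The transcript of chrna3 itself had 59.8, 40.7 and 57.4 in the C246X libraries, against 102, 28.1 and 55.1 in the WT libraries, with a log2 fold change of −0.06 (adjusted p = 0.94), and the genotypes overlapped. A premature stop need not lower a transcript, so this level does not test the genotype labels. Markers of brain cells were present in every library, with 13 neuron markers summing to 246359 to 266887 in C246X and 259914 to 334080 in WT. Of these 13, a SLC17A6 copy (ENSDARG00000001127) rose, and a GAD1 copy (ENSDARG00000027419) and gap43 fell. Over all tested genes, 11.4% fell and 11.1% rose, and the marker counts are to be read beside those shares. Of 26 microglia and macrophage markers 19 fell. Their summed value was 11326 to 14676 in C246X against 23410 to 24713 in WT, with no overlap. It was made up mostly of apoeb, cd74a and cd74b. Among 16 lymphocyte markers 3 fell (cd4-1, lck and ZAP70) and 1 rose, RAG2, while the B-cell receptor markers cd79a and cd79b were at 5.02 or less in all 6 libraries and cd37 was listed at 0 in all 3 C246X libraries. The summed lymphocyte markers lay between 3289 and 3745 in C246X and between 3571 and 3717 in WT (n = 3 each), a sum made up mostly of TOX. Of 6 neutrophil markers 2 fell, with sums of 872 to 1277 in C246X and 1190 to 1463 in WT, and none of 7 endothelial markers passed (limma; 0 at an unadjusted p under 0.05 and 0 in limma-voom), with sums of 4270.4 to 5699 in C246X and 4597 to 6107 in WT. Of 9 glia markers 4 fell, with sums of 297448 to 321868 in C246X and 363974 to 426588 in WT. None of 6 erythroid markers passed (limma; 1 was lower at an unadjusted p under 0.05, and 0 passed in limma-voom), with sums of 3350.1 to 7853 in C246X and 3317 to 7131 in WT. Of 14 photoreceptor and pineal markers 10 fell, with sums of 325 to 5818 in C246X and 7635 to 23669 in WT. Leaving out 1 library changed the smaller marker counts: the lymphocyte markers that fell numbered 1 without C246X replicate 2 or WT replicate 3, and the neutrophil markers that fell numbered 0 without C246X replicates 1 or 2 or WT replicates 2 or 3. The RAG2 rise held without C246X replicate 3 and was lost without any other library. With WT replicate 1 left out 4 neuron markers fell, and with WT replicate 3 or C246X replicates 1 or 2 left out 1 did. The glia markers that fell numbered 1 without C246X replicate 2 and 2 without C246X replicate 1 or WT replicate 3, and the photoreceptor and pineal markers numbered 1 without C246X replicate 1 or WT replicates 2 or 3 and 2 without C246X replicate 3. In whole-tissue RNA, fewer cells of a type and less RNA per cell cannot be told apart, and the part of the immune markers in the results below was not tested.

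Where these genes changed in C246X brains, they mostly fell. Of the 105 tested members 30 fell and 3 rose, where 11.4% of all tested genes fell and 11.1% rose. Their median log2 fold change was −0.68, against −0.0077 over all tested genes, and 78 of the 105 had a negative value. The C246X libraries lay wholly below the WT libraries in 37 members, where 20.7% of all tested genes did so, and wholly above them in 10, where 20.7% did so. The members that rose were a CXCR4 copy and both IL1RAPL1 copies. Among chemokines, interleukins and interleukin receptor chains outside the IL1RAPL genes none rose in limma (6 were higher at an unadjusted p under 0.05, and 0 passed in limma-voom). With 42 members below a mean of 10, of which 4 passed, many differences rest on a handful of reads. Among the 63 members with a mean of at least 10, 26 fell and 3 rose. With C246X replicate 1 left out 16 members fell, with C246X replicate 2 left out 19, and with WT replicate 3 left out 17. Of the 30 members that fell, C246X replicate 1 held the lowest value in 19, C246X replicate 2 in 8 and C246X replicate 3 in 3. The 19 include cxcl11.1, in which C246X replicates 1 and 2 were tied at 0.

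**Figure D1:**
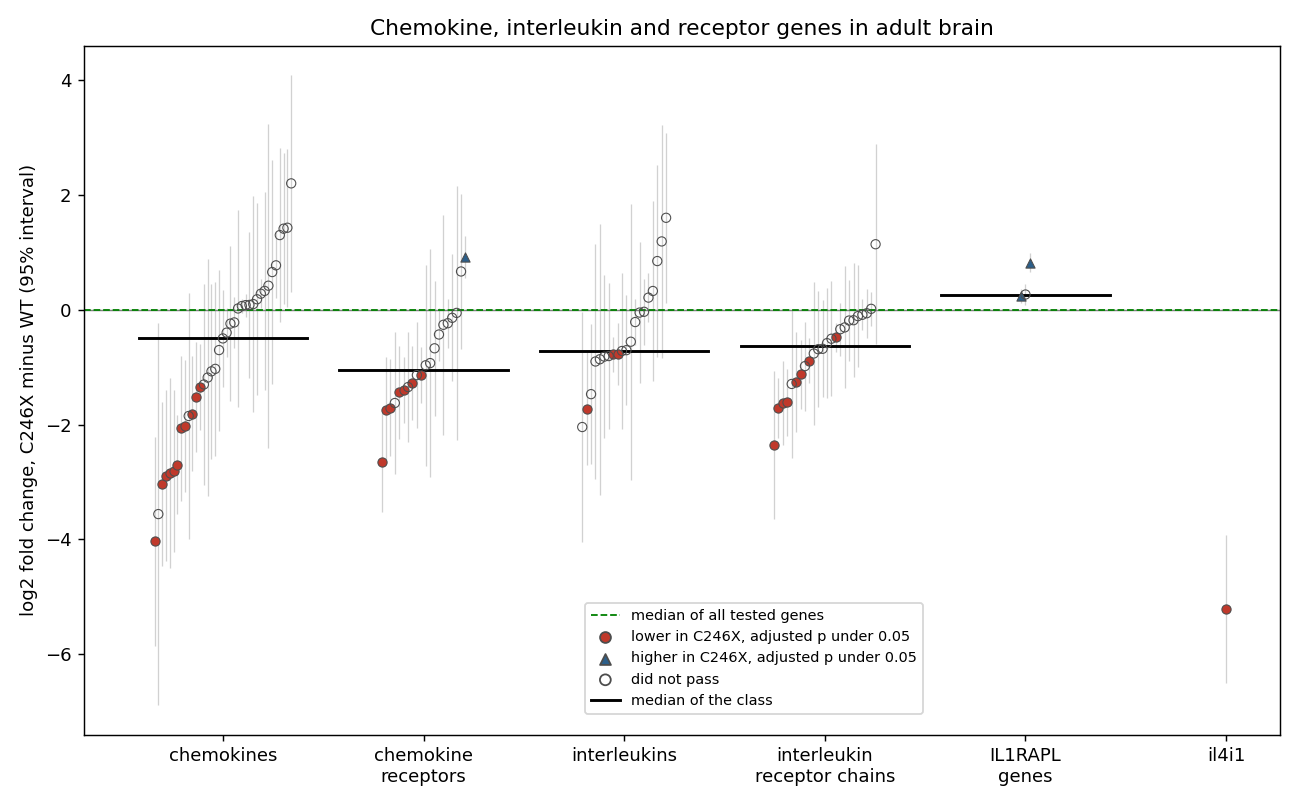
Log2 fold change, C246X minus WT, of each tested member (points) with its 95% interval (grey lines), by class; filled points passed at an adjusted p under 0.05, black lines are class medians and the dashed line is the median of all tested genes. The class medians of chemokines (−0.50), chemokine receptors (−1.05), interleukins (−0.71) and interleukin receptor chains (−0.63) lie below the median of all tested genes, and that of the 3 IL1RAPL genes (0.27) lies above it.

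**Figure D2:**
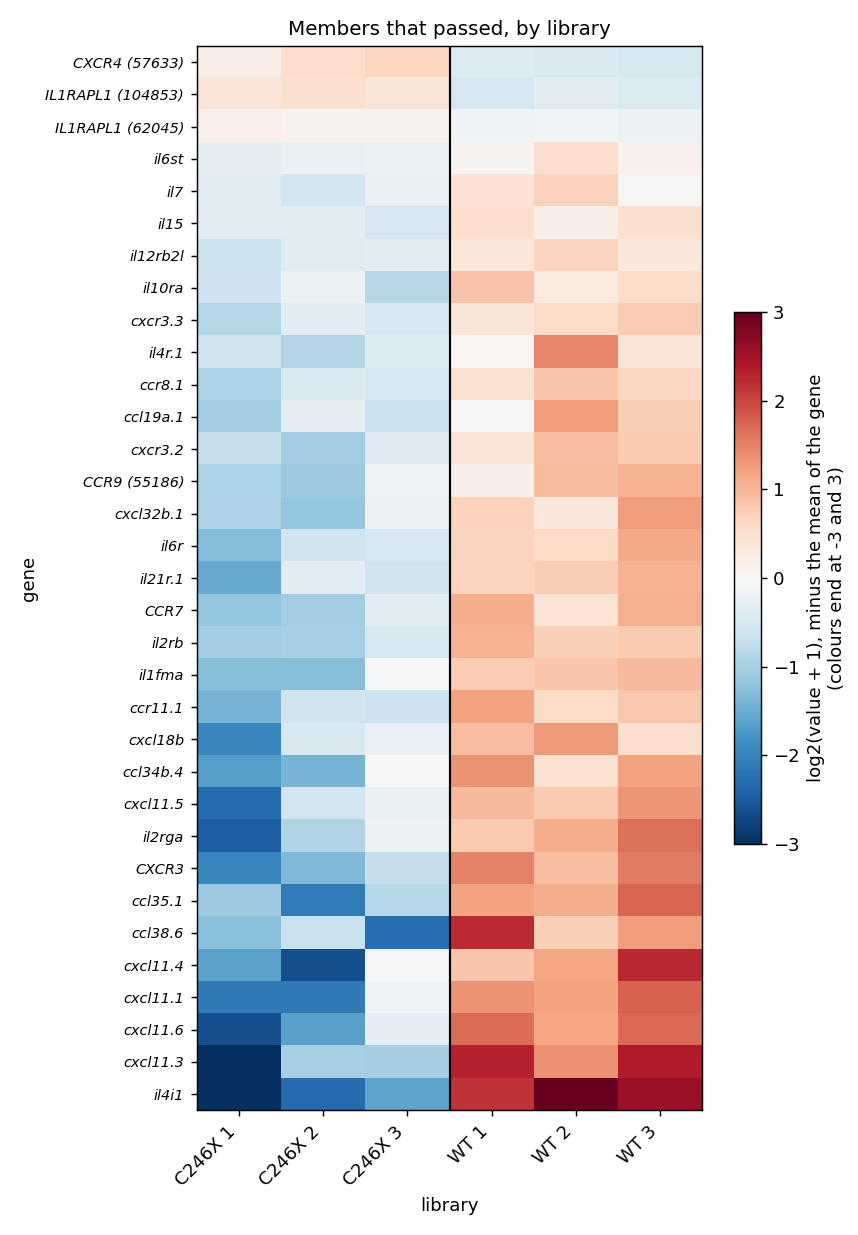
Level of the 33 members that passed, as log2(value + 1) minus the mean of that gene over the 6 libraries, with C246X libraries on the left and WT libraries on the right and genes ordered by fold change; numbers in brackets are the last digits of the Ensembl identifier where a symbol is shared. The 3 members that rose stand at the top, and il4i1 and cxcl11.3 at the bottom.

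The cxcl11 genes fell, and cxcl11.3 had the lowest fold change of the chemokines that passed. They encode ligands that in mammals are induced by interferon and attract activated T cells through the receptor CXCR3. Of the 6 tested genes of the family 5 fell, and all 6 had negative fold changes. Over all tested genes, 11.4% fell, 51.0% had negative fold changes and 20.7% lay wholly lower in C246X. The gene cxcl11.3 had 0, 7.13 and 7.05 in the C246X libraries, against 79.7, 41.2 and 83.7 in the WT libraries. The highest C246X library thus stood below the lowest WT library, and the log2 fold change was −4.03 (SE 0.79, adjusted p = 0.0096). For cxcl11.6 the values were 0, 1.02 and 4.03 in C246X and 18.9, 13.1 and 19.1 in WT, a change of −3.04 (SE 0.62, adjusted p = 0.0113). Values of cxcl11.1 were 0, 0 and 3.02 in C246X and 9.96, 9.04 and 13.8 in WT (log2 fold change −2.89, adjusted p = 0.0161). The genotypes were separate for both genes, but each C246X value was at most 4.03, about 4 reads. The gene cxcl11.5, with 2.06, 9.17 and 12.1 in C246X and 28.9, 25.1 and 37.1 in WT, fell by 2.06 on the log2 scale (adjusted p = 0.0312), and cxcl11.4, with 1.03, 0 and 5.04 in C246X and 9.96, 13.1 and 28.6 in WT, fell by 2.85 (adjusted p = 0.0254). Of the 6, cxcl11.7 alone overlapped between the genotypes, at 0, 4.07 and 0 in C246X and 1.99, 3.01 and 5.3 in WT, and did not pass. Summed over the 6 genes, the family reached 3.10, 21.4 and 31.2 in the C246X libraries and 149, 105 and 187 in the WT libraries. C246X replicate 1 was the lowest library, and the genotypes did not overlap. Read sharing between these related genes was not tested, and their estimated read numbers were whole in all 6 libraries. The calls on cxcl11.3 and cxcl11.6 held in each alternative in which they were tested, and over the alternatives the adjusted p was 0.00712 to 0.0583 for cxcl11.1, 0.0139 to 0.0924 for cxcl11.4 and 0.0272 to 0.104 for cxcl11.5. The family members that fell numbered 3 without C246X replicate 1 or WT replicate 2 and 2 without C246X replicate 2 or WT replicate 3. With the filter of 1 CPM in 3 libraries, only 1 of the 6 genes, cxcl11.3, was tested, and it fell. It met that filter through its WT libraries alone, so this fit is no separate check of its call.

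The 3 genes of the receptor CXCR3 fell together with these ligands. The gene listed as CXCR3 (ENSDARG00000007358) had 6.19, 10.2 and 16.1 in the C246X libraries, against 76.7, 52.3 and 81.6 in the WT libraries, a log2 fold change of −2.65 (SE 0.38, adjusted p = 0.00229). The receptor gene cxcr3.2, which in zebrafish guides macrophages, had 38.2, 29.5 and 47.3 in C246X and 80.7, 119 and 108 in WT and changed by −1.40 (SE 0.25, adjusted p = 0.00626). Its neighbour cxcr3.3, described in zebrafish as a scavenging receptor, had 37.1, 54 and 48.4 in C246X and 88.6, 102 and 117 in WT and changed by −1.13 (SE 0.22, adjusted p = 0.00831). In all 3 genes the genotypes were separate, and none of the 3 calls was lost in any alternative. Over all tested genes, 11.4% fell and 20.7% lay wholly lower in C246X. Summed over the 3 genes, the values were 95.7 ± 15.2 in C246X and 275 ± 30.1 in WT.

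**Figure D3:**
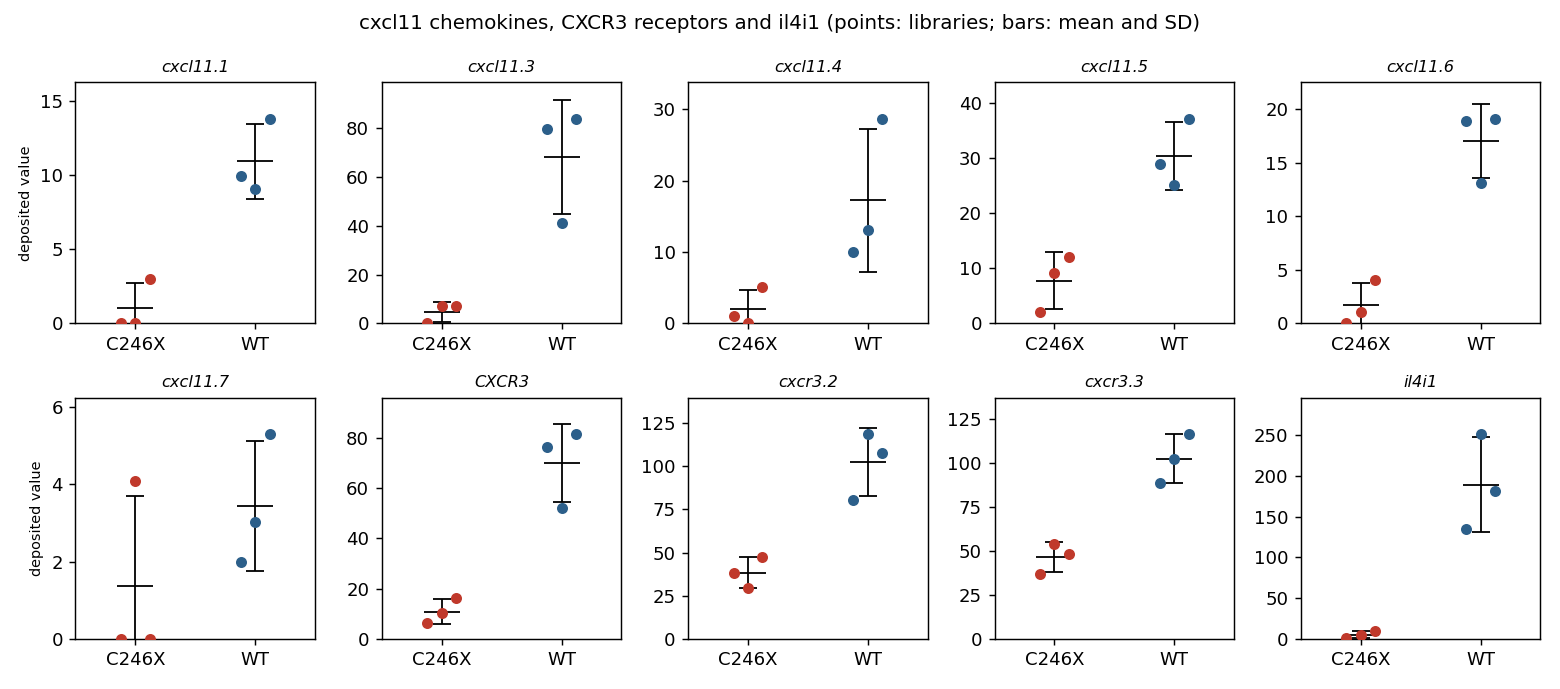
Deposited values of the cxcl11 chemokine genes, the CXCR3 receptor genes and il4i1 in each library (points), with the mean and SD of 3 libraries per genotype (bars, ending at 0 where the SD exceeds the mean) and each axis starting at 0. In every panel but cxcl11.7 the 3 C246X points lie below the 3 WT points.

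Of the other chemokines, 6 fell, and none rose among all 37 tested (limma; 5 were higher at an unadjusted p under 0.05, and 0 passed in limma-voom). Over all tested genes, 11.4% fell and 11.1% rose. Leaving out WT replicate 1 or WT replicate 3 gave 1 chemokine that rose, cxcl8b.3 and ccl25b in turn. The CC chemokine gene ccl35.1 had 15.5, 7.13 and 18.1 in the C246X libraries, against 79.7, 73.4 and 115 in the WT libraries, a log2 fold change of −2.70 (SE 0.37, adjusted p = 0.00206), and its call held in every alternative. The call on ccl38.6 also held wherever it was tested, although it rested on few reads, 1.03, 2.04 and 0 in C246X and 21.9, 7.03 and 10.6 in WT (log2 fold change −2.81, adjusted p = 0.0146). The gene cxcl18b, a neutrophil attractant in zebrafish, had 21.7, 62.1 and 73.5 in C246X and 168, 215 and 124 in WT and changed by −1.81 (SE 0.44, adjusted p = 0.0212). The lymphoid chemokine gene ccl19a.1, a ligand of CCR7, had 43.3, 72.3 and 55.4 in C246X and 90.6, 214 and 149 in WT and changed by −1.34 (SE 0.33, adjusted p = 0.022). The CC chemokine gene ccl34b.4 had 4.13, 5.09 and 15.1 in C246X and 39.8, 21.1 and 36 in WT (log2 fold change −2.02, adjusted p = 0.0237). The last of the 6, cxcl32b.1, had 6.19, 5.09 and 11.1 in C246X and 20.9, 16.1 and 31.8 in WT (log2 fold change −1.51, adjusted p = 0.0346). In each of the 6 the genotypes did not overlap. Of all 37 tested chemokines, 29.7% lay wholly lower in C246X, where 20.7% of all tested genes did so. Over the alternatives the adjusted p was 0.0169 to 0.065 for cxcl18b, whose call was lost without WT replicates 1 or 2, and 0.00631 to 0.0841 for ccl19a.1, whose call was lost without C246X replicates 1 or 3 or WT replicates 2 or 3. It was 0.0117 to 0.0822 for ccl34b.4 and 0.0297 to 0.11 for cxcl32b.1, and both calls were lost without C246X replicates 1 or 2 or WT replicates 1 or 3. The 11 chemokines that fell in all, cxcl11 genes included, made up 29.7% of the 37 tested. The chemokines that fell numbered 6 without C246X replicates 1 or 2 and 5 without WT replicate 3.

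Several chemokines that did not pass varied widely among the libraries of a genotype. The gene ccl39.7 had 0, 0 and 1.01 in the C246X libraries, against 0, 66.3 and 47.7 in the WT libraries. WT replicate 1 was at the level of the C246X libraries, and the fold change of −3.56 missed the threshold (adjusted p = 0.116; 0.00128 to 0.397 over alternatives, passing without WT replicate 1). The second CCR7 ligand gene, ccl19b, reached 68.3 in WT replicate 2 and at most 7.41 in the other 5 libraries. The chemokine ccl36.1 likewise had 24.1 in WT replicate 2 and 14.1 in C246X replicate 3, with at most 3.06 elsewhere. The cxcl8 genes, which encode the main neutrophil attractant of inflammation, were low throughout. Here cxcl8a had 3.1, 0 and 3.02 in C246X and 0, 0 and 3.18 in WT, cxcl8b.1 had 19.6, 24.4 and 8.06 in C246X and 12.9, 43.2 and 11.7 in WT, and cxcl8b.3 had 9.29, 13.2 and 14.1 in C246X and 9.96, 0 and 1.06 in WT. The fold change of cxcl8b.3 was positive, 2.21 (95% interval 0.31 to 4.10, adjusted p = 0.0917), and did not pass, although it passed without WT replicate 1 (adjusted p 0.00897 to 0.217 over alternatives). The genes listed for their receptor as cxcr1 (ENSDARG00000052088) and CXCR1 (ENSDARG00000054975) stayed at 7.03 or less in every library. A further 10 low chemokine genes (ccl20a.3, ccl20b, ccl25a, ccl27b, ccl33.3, ccl34a.4, ccl35.2, ccl38.1, ccl39.6 and cxcl19) did not pass, but ccl33.3 passed as lower without WT replicate 2 (adjusted p 0.0486 to 0.819 over alternatives). Among them ccl27b, with 4.13, 6.11 and 4.03 in C246X and 1.99, 0 and 2.12 in WT, and cxcl19, with 4.13, 4.07 and 2.01 in C246X and 0, 1 and 1.06 in WT, were higher in C246X without overlap.

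The ligand genes CXCL12, cxcl12b and CXCL14 did not pass. CXCL12, which holds stem and progenitor cells in place through CXCR4, had 1903, 1889 and 2082 in the C246X libraries, against 2048, 1649 and 1861 in the WT libraries, a log2 change of 0.084 (95% interval −0.12 to 0.28, adjusted p = 0.529). Its paralogue cxcl12b had 1793, 1306 and 1623 in C246X and 2499, 1574 and 1519.9 in WT, a change of −0.22 (95% interval −0.66 to 0.23, adjusted p = 0.461). CXCL14, a chemokine made by many tissues without inflammation, had 2090.1 ± 43.6 in C246X and 1994 ± 35.3 in WT and a change of 0.068 (95% interval −0.053 to 0.19, adjusted p = 0.394). The intervals of CXCL12 and CXCL14 leave room for rises of up to 0.28 and 0.19 on the log2 scale. A pair of neighbouring genes had higher values in C246X without passing. The gene ccl25b, a ligand of CCR9 known from thymus and gut, had 677, 995 and 814 in C246X and 514, 319.5 and 662 in WT, a change of 0.78 (SE 0.25, adjusted p = 0.0591), and among the alternatives it passed without WT replicate 3 alone (adjusted p 0.036 to 0.182 over alternatives). Its neighbour ccl44 had 482, 494 and 484 in C246X and 419, 343 and 445 in WT, a change of 0.28 (SE 0.11, adjusted p = 0.1). In both genes, as in CXCL14, all C246X libraries lay above all WT libraries, where 20.7% of all tested genes did so.

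Of the 20 chemokine receptor genes 7 fell, 1 rose and 12 did not pass, where 11.4% of all tested genes fell and 11.1% rose. The median log2 fold change was −1.05. The C246X libraries lay wholly below the WT libraries in 10, where 20.7% of all tested genes did so. Besides the CXCR3 genes, CCR7, which brings dendritic cells and T cells into lymphoid tissue, had 7.22, 8.15 and 14.1 in the C246X libraries, against 38.8, 24.1 and 38.1 in the WT libraries, a log2 fold change of −1.70 (SE 0.37, adjusted p = 0.0141). A CCR9 copy (ENSDARG00000055186) had 21.7, 19.4 and 39.3 in C246X and 47.8, 82.4 and 89 in WT, a change of −1.43 (SE 0.35, adjusted p = 0.0232), whereas another copy (ENSDARG00000099738) had 1.03, 8.15 and 5.04 in C246X and 0.996, 6.03 and 12.7 in WT and did not pass. In each of these genes but the second CCR9 copy, all C246X values lay below all WT values. The CC receptor gene ccr8.1 had 12.4, 18.3 and 17.1 in C246X and 34.8, 45.2 and 39.2 in WT, a change of −1.28 (SE 0.28, adjusted p = 0.0153). Its relative ccr11.1 had 3.1, 6.11 and 6.04 in C246X and 23.9, 15.1 and 18 in WT, a change of −1.74 (SE 0.40, adjusted p = 0.0177), and both genes were separate between genotypes. Of the receptor genes that did not pass, ccr12a had a log2 fold change of −1.14 (SE 0.40, adjusted p = 0.077) and CCR8 one of −1.34 (SE 0.42, adjusted p = 0.0522). CCR8 passed without WT replicate 2 and with the filter of 1 CPM in 3 libraries (adjusted p 0.0189 to 0.164 over alternatives). For ccr2, whose product in mammals brings monocytes to inflamed tissue, it was −1.62 (SE 0.54, adjusted p = 0.0638). CCR6 had 70.2, 51.9 and 63.5 in C246X and 88.6, 89.4 and 72 in WT, which did not overlap, yet the fold change of −0.43 did not pass. The low receptor genes ccr10, CXCR5 and both XCR1 copies did not pass, with at most 14.9 in any library. Over alternatives the adjusted p was 0.0141 to 0.0539 for CCR7, 0.0174 to 0.0876 for the CCR9 copy, 0.0155 to 0.0505 for ccr8.1 and 0.0176 to 0.0552 for ccr11.1. Each of these calls was lost without C246X replicate 1, that of CCR7 also without WT replicate 3, that of ccr11.1 also without WT replicates 1 or 3, and that of the CCR9 copy also without C246X replicate 2 or WT replicates 2 or 3. The receptors that fell numbered 3 without C246X replicate 1 and 4 without WT replicate 3.

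CXCR4 rose in 1 of its copies. It is the receptor of CXCL12, carried by leukocytes, progenitors and migrating neurons. The copy ENSDARG00000057633 had 147, 183 and 199 in the C246X libraries, against 95.6, 92.4 and 86.9 in the WT libraries, a rise of 0.93 (SE 0.16, adjusted p = 0.00549) that held in every alternative. The copy ENSDARG00000041959 had 104, 147 and 144 in C246X and 169, 129 and 164 in WT, with overlapping genotypes and a change of −0.23 (95% interval −0.66 to 0.20, adjusted p = 0.411). Neither the difference between the copies nor read sharing between them was tested.

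**Figure D4:**
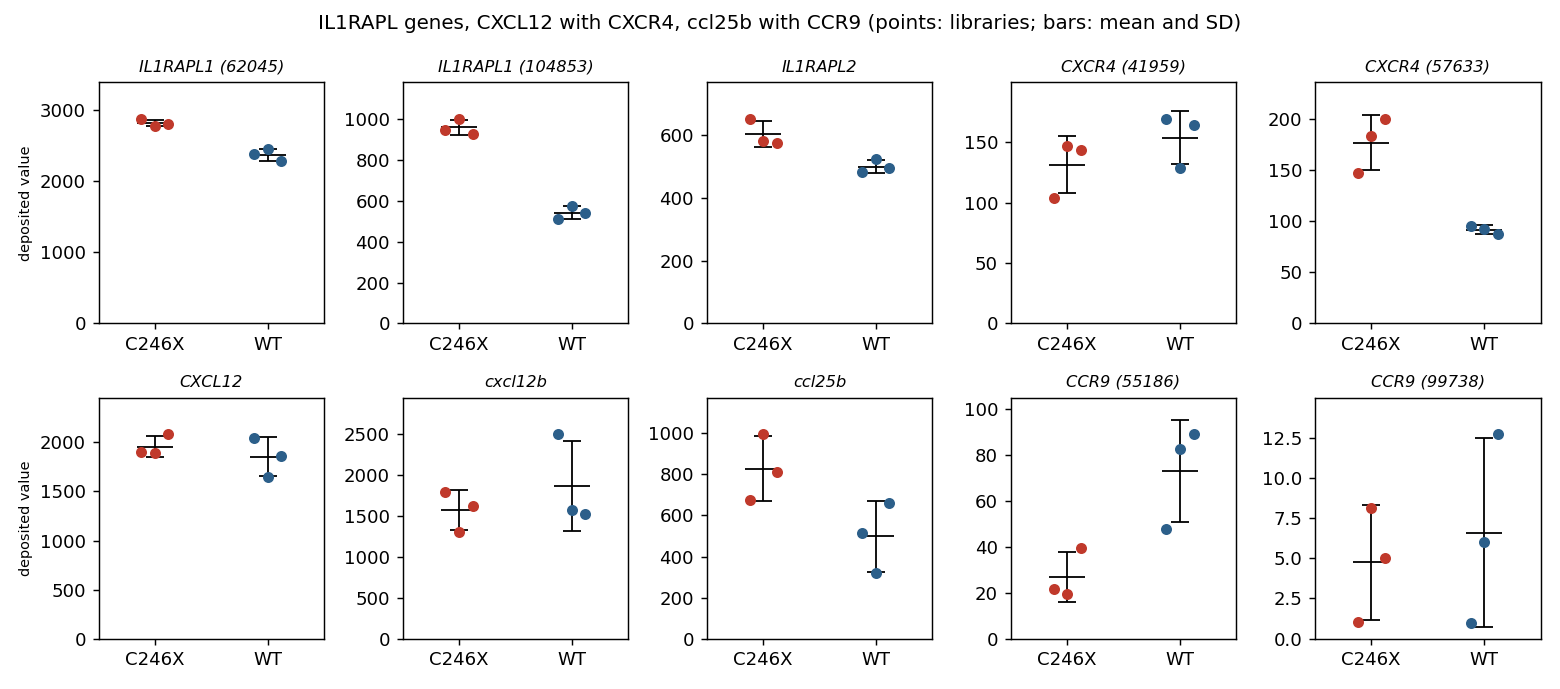
Deposited values of the IL1RAPL genes, the CXCR4 copies with their CXCL12 ligand genes, and ccl25b with the CCR9 copies, in each library (points) with the mean and SD of 3 libraries per genotype (bars); numbers in brackets are the last digits of the Ensembl identifier. The C246X points lie above the WT points for all 3 IL1RAPL genes, 1 CXCR4 copy and ccl25b, and below them for 1 CCR9 copy.

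Interleukin genes themselves were mostly low, and 12 of the 20 had a mean under 10. Of the 20, 3 fell, or 15%, a share near the 11.4% of all tested genes that fell, and none rose (limma; 1 was higher at an unadjusted p under 0.05, and 0 passed in limma-voom). The gene il15, whose product sustains natural killer cells and memory T cells, had 166, 162 and 145 in the C246X libraries, against 297, 232 and 287 in the WT libraries. The genotypes were separate, the log2 fold change was −0.78 (SE 0.13, adjusted p = 0.0056), and the call held in every alternative. The related gene il15l did not pass, at 136, 106 and 152 in C246X and 124, 99.5 and 189.6 in WT. The lymphocyte growth factor gene il7 had 46.4, 39.7 and 50.4 in C246X and 80.7, 96.5 and 60.4 in WT, a change of −0.77 (SE 0.23, adjusted p = 0.049). The IL-1 family gene il1fma had 4.13, 4.07 and 11.1 in C246X and 19.9, 21.1 and 23.3 in WT, a change of −1.72 (SE 0.43, adjusted p = 0.0246). The calls on il7 and il1fma were narrow: the adjusted p over alternatives was 0.0389 to 0.142 for il7 and 0.0139 to 0.0822 for il1fma. The call on il7 was lost without any 1 of the C246X replicates, without WT replicates 1 or 2 and with no filter on low values, and that on il1fma without C246X replicates 1 or 2 or any 1 of the WT replicates. The interleukins that fell numbered 1 without C246X replicates 1 or 2 or WT replicate 2.

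The inflammatory interleukin genes il1b and il6 did not pass. The gene il1b, the main early cytokine of inflammation, had 5.16, 17.3 and 10.1 in the C246X libraries, against 14.9, 38.2 and 41.3 in the WT libraries. WT replicates 2 and 3 stood above the rest and WT replicate 1 lay within the C246X range, and the change of −1.47 (95% interval −2.68 to −0.25, adjusted p = 0.0827) did not pass. Without WT replicate 1 it did (adjusted p 0.0316 to 0.229 over alternatives). Values of il6 were 2.06, 0 and 2.01 in C246X and 1.99, 3.01 and 3.18 in WT. These are about 3 reads at the most, so a fall may have gone undetected at this depth. The type 2 cytokine gene il13 had 10.3, 9.17 and 0 in C246X and 17.9, 18.1 and 21.2 in WT, which did not overlap, and the fold change of −2.04 missed the threshold (adjusted p = 0.13). Of the IL-12 and IL-23 subunits, il12a, il12ba, il12bb and il23a had means of 2.04 to 5.77 in C246X and 2.35 to 10.1 in WT, and none passed. The gene il34, which encodes the brain's own ligand for the microglial receptor CSF1R, had 73.3, 77.4 and 73.5 in C246X and 93.6, 92.4 and 75.2 in WT, a change of −0.21 (95% interval −0.61 to 0.18, adjusted p = 0.418). The receptor gene csf1ra, which is no member, had 119.7, 132 and 158 in C246X and 276, 381 and 335 in WT, a change of −1.26 (SE 0.16, adjusted p = 0.00137). Its paralogue csf1rb, also no member, had 81.5, 68.2 and 109.8 in C246X and 90.6, 96.5 and 130.3 in WT. The genotypes overlapped for csf1rb, and its change of −0.30 (SE 0.23, adjusted p = 0.394) did not pass. IL16, a chemoattractant of CD4 cells whose precursor is also found in neurons, had 365 ± 65.7 in C246X and 316 ± 66.2 in WT and did not pass. Among the interleukins, IL17D alone was higher in C246X without overlap, at 8.7, 6.39 and 5.29 in C246X and 2.99, 3.01 and 0 in WT (log2 fold change 1.61, adjusted p = 0.112), and 3 of its 6 estimated read numbers were not whole. The low genes il2, il11a, il17a/f2, il17a/f3, il21 and il22 did not pass, with at most 11.3 in any library.

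Of the 7 receptor genes of cytokines that use the common gamma chain, 4 fell, where 11.4% of all tested genes fell. These receptors serve IL-2, IL-4, IL-7, IL-9, IL-15 and IL-21 and are the main growth and survival receptors of lymphocytes. The beta chain gene il2rb, shared by the receptors of IL-2 and IL-15, had 25.8, 26.5 and 37.3 in the C246X libraries, against 113, 89.4 and 94.3 in the WT libraries, a log2 fold change of −1.71 (SE 0.23, adjusted p = 0.00176). The IL-21 receptor gene il21r.1 had 19.6, 45.8 and 38.3 in C246X and 92.6, 97.5 and 119.7 in WT, a change of −1.63 (SE 0.32, adjusted p = 0.00954). Both calls held in every alternative. The gamma chain gene il2rga had 4.13, 14.3 and 24.2 in C246X and 47.8, 59.3 and 87.9 in WT, a change of −2.35 (SE 0.56, adjusted p = 0.0203), while its paralogue il2rgb had 9.29, 7.13 and 22.2 in C246X and 11, 15.1 and 18 in WT and did not pass. C246X replicate 1 was the lowest library for il2rga and C246X replicate 3 the highest of the mutants. The IL-4 receptor gene il4r.1 had 23.7, 19.4 and 27.2 in C246X and 37.8, 101.5 and 47.7 in WT, a change of −1.26 (SE 0.38, adjusted p = 0.0466), with WT replicate 2 far above the other libraries. The specific chain il15ra did not pass, at 7.22, 13.2 and 12.1 in C246X and 21.9, 22.1 and 21.2 in WT (log2 fold change −0.98, SE 0.34, adjusted p = 0.0724), although all 3 C246X values lay under the WT values. The chain il7r, at 14.4, 24.4 and 32.2 in C246X and 39.8, 18.1 and 46.6 in WT, overlapped and did not pass. Summed over the 7 genes of this family, the values were 149 ± 44.6 in C246X and 401 ± 36.0 in WT. The adjusted p over alternatives was 0.00867 to 0.0817 for il2rga, above the threshold without C246X replicate 2 or WT replicate 3, and 0.031 to 0.135 for il4r.1, above it without any 1 of the C246X replicates and without WT replicates 2 or 3, with a pseudocount of 0.1 and in limma-voom. The part of the lymphocyte markers that fell in these differences was not tested.

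The receptor of IL-6 fell in both of its chains. The ligand-binding chain gene il6r had 42.3, 69.3 and 73.5 in the C246X libraries, against 169, 161 and 234 in the WT libraries, with a change of −1.61 (SE 0.25, adjusted p = 0.00358) that was not lost in any alternative. The shared signalling chain gene il6st, which encodes gp130 and also serves other cytokines of this family, had 1864, 1966 and 1973 in C246X and 2408, 3262 and 2481 in WT, a smaller change of −0.48 (SE 0.11, adjusted p = 0.0185). Its adjusted p was 0.01 to 0.0737 over alternatives, and the call was lost without any 1 of the C246X replicates. Of the IL-10 receptor, the ligand-binding chain gene il10ra had 31, 41.8 and 26.2 in C246X and 87.6, 59.3 and 71 in WT, a change of −1.12 (SE 0.26, adjusted p = 0.0183), and the accessory chain gene il10rb had 876, 1092 and 1012 in C246X and 978, 1225 and 964 in WT, a change of −0.084 (95% interval −0.35 to 0.18, adjusted p = 0.646). The call on il10ra, with an adjusted p of 0.0162 to 0.0634 over alternatives, was lost without C246X replicates 1 or 3 or WT replicates 1 or 3. A gene of the IL-12 receptor family, il12rb2l, had 69.1, 83.5 and 87.6 in C246X and 138, 172 and 136 in WT, a change of −0.88 (SE 0.17, adjusted p = 0.00925) that held throughout. The other chains of that family, il12rb1, il12rb2 and il23r, did not pass, with fold changes of −0.18, −0.68 and 1.14.

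**Figure D5:**
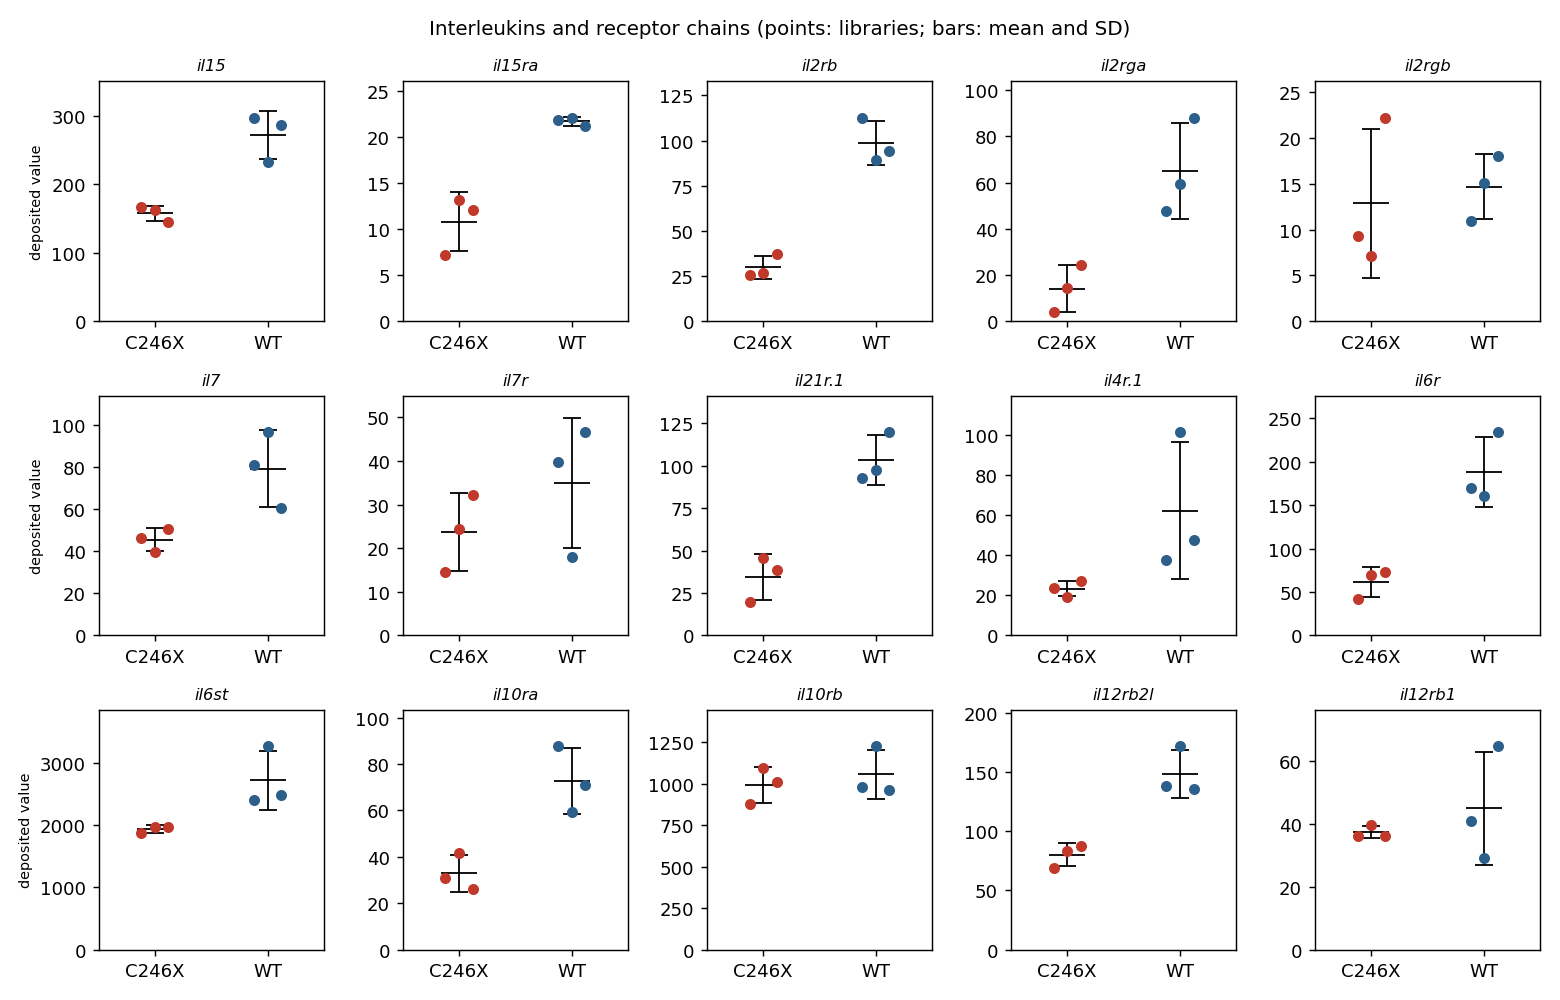
Deposited values of il15, il7 and interleukin receptor chain genes in each library (points) with the mean and SD of 3 libraries per genotype (bars) and each axis starting at 0. The C246X points lie wholly below the WT points for il15, il15ra, il2rb, il2rga, il7, il21r.1, il4r.1, il6r, il6st, il10ra and il12rb2l, and overlap them for il2rgb, il7r, il10rb and il12rb1.

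None of the 5 IL-17 receptor genes passed (limma; 1, il17rel, was lower at an unadjusted p under 0.05, and 0 passed in limma-voom), but il17rel passed without WT replicate 2 (adjusted p 0.0419 to 0.317 over alternatives). The chain gene il17ra1a had 39.2, 44.8 and 47.3 in C246X and 55.8, 53.3 and 57.2 in WT, which did not overlap, a change of −0.34 (95% interval −0.80 to 0.13, adjusted p = 0.266). IL17RD, which in fish embryos restrains fibroblast growth factor signalling, had 421 ± 25.2 in C246X and 419 ± 68.6 in WT and a change of 0.019 (95% interval −0.27 to 0.31, adjusted p = 0.934). None of its 6 estimated read numbers was whole. The IL-13 receptor gene il13ra1 had 91.8, 139.5 and 118 in C246X and 123, 109.5 and 126 in WT and il13ra2 had 36.1, 36.7 and 23.2 in C246X and 17.9, 45.2 and 55.1 in WT. Neither passed, nor did the chains il11ra, il17ra1b, il17rc and il20ra. Over all 24 interleukin receptor chains, 8 fell and none rose (limma; 0 were higher at an unadjusted p under 0.05, and 0 passed in limma-voom), with a median of −0.63. Over all tested genes, 11.4% fell and 11.1% rose. The number of chains that fell was 5 without any 1 of the C246X replicates or WT replicate 3.

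The IL1RAPL genes went the other way. They encode receptor-like proteins of the IL-1 receptor family that sit at synapses and organise their assembly, and in humans loss of IL1RAPL1 causes intellectual disability. An IL1RAPL1 copy (ENSDARG00000104853) had 950.2, 1001 and 929.8 in the C246X libraries, against 512, 574 and 542 in the WT libraries, a log2 fold change of 0.82 (SE 0.07, adjusted p = 0.000285) that held in every alternative and had the smallest p of any member. The other copy (ENSDARG00000062045) had 2870.3, 2777 and 2801 in C246X and 2386, 2448 and 2277 in WT, a smaller rise of 0.25 (SE 0.05, adjusted p = 0.0143). IL1RAPL2 had 652, 583 and 577 in C246X and 482, 524 and 497 in WT, and its change of 0.27 (SE 0.08, adjusted p = 0.0503) missed the threshold by little. In all 3 genes every C246X library stood above every WT library. Over all tested genes, 11.1% rose and 20.7% lay wholly higher in C246X. The smaller IL1RAPL1 rise was lost without C246X replicates 1 or 3 (adjusted p 0.0123 to 0.0557 over alternatives), and IL1RAPL2 passed with upper-quartile scaling and with a filter of 1 CPM in 3 libraries (0.0447 to 0.154 over alternatives).

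The largest change of any member was in il4i1, which encodes a secreted oxidase of aromatic amino acids, first known as a gene induced by IL-4 and expressed by antigen-presenting cells. Its values were 1.03, 5.09 and 9.07 in the C246X libraries, against 135, 251 and 181 in the WT libraries. The highest C246X library was thus far below the lowest WT library, with means of 5.06 ± 4.02 in C246X and 189 ± 58.3 in WT and a log2 fold change of −5.21 (SE 0.56, adjusted p = 0.000645). This was the 51st lowest fold change among the 23104 tested genes, and the call held in every alternative.

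Other cytokine genes, atypical receptors and signalling genes were read from 5 lists. Of their 71 tested genes 20 fell and 1 rose, where 11.4% of all tested genes fell and 11.1% rose, and the median change was −0.36. Among 19 JAK, STAT and SOCS genes 9 fell and 1 rose. The gene stat2, a factor of the interferon response, had 855, 1012 and 916 in the C246X libraries, against 8313, 6050.2 and 6301 in the WT libraries, a change of −2.88 (SE 0.12, adjusted p = 6.74e-06), with all C246X values below all WT values. The exception was stat5a, a factor used by growth hormone and gamma-chain cytokines, which rose at 193, 170.1 and 177 in C246X and 105, 105 and 117 in WT (log2 fold change 0.73, SE 0.13, adjusted p = 0.00695). Of the kinases that serve these receptors, jak3, the partner of the common gamma chain and chosen here after its values were seen, had 29.9, 45.8 and 49.4 in C246X and 117, 82.4 and 119 in WT, a change of −1.34 (SE 0.26, adjusted p = 0.00887). TYK2, likewise chosen after its values were seen, had 805, 795 and 954 in C246X and 1431, 988 and 1335 in WT, a change of −0.54 (SE 0.14, adjusted p = 0.0283). JAK1 and both JAK2 genes did not pass, with fold changes of −0.04 for JAK1, 0.034 for JAK2 and 0.043 for jak2a. Of 18 genes between MyD88 and NF-kappaB, the route used by the IL-1 receptor, 3 fell, a share near that of all tested genes. Among these 3 were the inhibitor genes IRAK3 and NFKBIE. IRAK3 had 40.8 ± 8.8 in C246X and 88.2 ± 3.48 in WT, a change of −1.11 (SE 0.22, adjusted p = 0.00928), and NFKBIE had 80.3 ± 26.7 in C246X and 211 ± 48.3 in WT, a change of −1.41 (SE 0.25, adjusted p = 0.00675). Of 7 genes of IL-1 processing 2 fell, caspb, an inflammatory caspase gene of fish, at 0, 3.06 and 5.04 in C246X and 151, 51.2 and 128 in WT (log2 fold change −5.12, SE 0.70, adjusted p = 0.00201), and the adaptor gene pycard (log2 fold change −1.30, SE 0.38, adjusted p = 0.0419). Of 22 genes of other cytokine families 5 fell, among them csf1ra and the tumour necrosis factor receptor gene tnfrsf1a, at 169 ± 31.9 in C246X and 425 ± 64.2 in WT (log2 fold change −1.33, SE 0.17, adjusted p = 0.00141). Atypical chemokine receptors take up chemokines without the usual G-protein signalling, and of their 5 genes 1 fell. This was an ACKR3 copy (ENSDARG00000058179) whose product binds CXCL12. Its values were 401, 453 and 419 in C246X and 578, 495 and 558 in WT (log2 fold change −0.35, SE 0.09, adjusted p = 0.0288). With 1 library left out, the pathway genes that fell numbered 14 to 18. The JAK, STAT and SOCS genes that fell numbered 6 without C246X replicate 1 or WT replicate 1 and 7 without any other library. The pathway genes that rose numbered 2 without C246X replicate 3 or WT replicate 2. The processing genes that fell numbered 1 without C246X replicates 1 or 2 or WT replicates 1 or 3, and the atypical receptors numbered 0 without C246X replicates 1, 2 or 3 or WT replicate 3.

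Ligand and receptor genes of a pair fell together in some cases and singly in others. Both ends fell for 5 cxcl11 genes with the CXCR3 genes and for ccl19a.1 with CCR7. The calls on ccl19a.1 and CCR7 were both lost without C246X replicate 1 or WT replicate 3, and ccl19b, the second CCR7 ligand gene, did not pass. For CXCL12 and cxcl12b, which did not pass, 1 CXCR4 copy rose and the other did not pass. For il15, which fell, the shared chains il2rb and il2rga fell and the specific chain il15ra did not pass. For il7, which fell, the specific chain il7r did not pass, and il2rga is also a chain of its receptor. The ligand genes il6, ccl25b and il21 did not pass, while il6r, il6st, a CCR9 copy and il21r.1 fell. Values of il6 and il21 were at most 3.18 and 9.96 in any library, so a fall of either may have gone undetected. Their log2 fold changes were −0.81 and −0.72, and that of ccl25b was 0.78. Whether the 2 ends of a pair differed was not tested.

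Calls were not always shared by chromosomal neighbours. Gene order was read from a newer assembly (GRCz12tu), where 88 of the 108 members were matched by symbol, and 28 lay within 5 genes of another member, in 11 groups. In the group of cxcl11.1, cxcl11.3, cxcl11.4 and cxcl20, the first 3 fell and cxcl20, with 10.2 ± 1.92 in C246X and 15 ± 4.66 in WT, did not pass. The group of ccl34b.1, ccl34b.4, ccl34b.8 and cxcl32b.1 held 2 genes that fell and 2 that did not pass, of which ccl34b.1 had 333, 396 and 544 in C246X and 660.1, 491 and 505 in WT. In the group of ccl38.6, ccl38a.4 and ccl38a.5, ccl38.6 fell, ccl38a.4 did not pass and ccl38a.5 was not tested. The neighbours cxcr3.2 and cxcr3.3 fell together, and ccl25b and ccl44 lay together with positive fold changes that did not pass.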

How the data were processed

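Polyadenylated RNA of whole adult brains was sequenced in paired reads of 150 bases. The submitters' processing notes name STAR as a tool and GRCz11 as the build. How reads were counted and scaled, and on which annotation, is not stated there or in the labels. As judged from the deposited signal values, each is a gene's estimated read number over a factor common to its library, and 95.0% to 95.2% of estimates below 1000 reads came out whole within 0.03. A sample's row was matched to its label by genotype and number.

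Values were analysed as log2(value + 1) with limma 3.58.1 in R 4.3.3 (empirical Bayes, 1 term for genotype, all 6 libraries), over the 23104 genes with a mean of at least 1; 574 genes lay below. A count test was planned if the table held counts; since it holds scaled values, the test for scaled values was used. The procedure was tested on simulated data with the same spread for all genes and with changes in well-expressed genes only. That test therefore does not cover members with low values or a wide spread. Alternatives were other library scalings, omitting the filter, requiring 1 CPM in 3 libraries, a pseudocount of 0.1, limma-voom on recovered estimates, the replicate block, and leaving out each library. The filter of 1 CPM kept cxcl11.3, CXCR3, ccl35.1 and il4i1 through their WT libraries alone, so for them it is no separate check. Marker and pathway lists came from textbook knowledge. Members passing the threshold, members of textbook ligand and receptor pairs, members with high values or near 0 in 1 genotype, and the 2 pathway genes per list and direction with the smallest p were named; other genes were chosen after their values were seen. The members and lists were chosen with earlier results of these data known. A pathway gene that the rule would name is not reported here.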

Additional observations from a re-analysis of the deposited data

How the results depend on the processing

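Of the 33 members that passed, 15 kept their call in all 6 fits that left out 1 library and in every other alternative in which they were tested, and none changed direction in any alternative. Leaving out 1 library gave 16 to 25 members that fell, 1394 to 2425 genes that rose among all genes and 1581 to 2353 that fell. Among pathway genes it gave 1 to 2 that rose and 14 to 18 that fell. Log2 fold changes that changed sign belonged to genes that did not pass. Leaving out 1 library gave −0.52 to 0.39 for chrna3, −1.03 to 0.36 for CCR9 (ENSDARG00000099738), −0.10 to 0.13 for IL17RD, −0.36 to 0.16 for XCR1 (ENSDARG00000054847), −0.51 to 0.66 for ccl20a.3, −0.25 to 0.72 for ccl20b, −0.42 to 0.45 for ccl25a, −0.27 to 0.72 for ccl35.2, −0.53 to 1.80 for ccl36.1, −0.54 to 0.62 for ccl39.6, −0.35 to 0.013 for cxcl12b, −0.56 to 0.34 for cxcl8b.1 and −0.82 to 0.69 for cxcr1 (ENSDARG00000052088). It also gave −0.16 to 0.027 for il10rb, −1.46 to 0.34 for il11a, −0.35 to 0.29 for il12a, −0.45 to 0.11 for il12rb1, −0.20 to 0.10 for il13ra1, −0.66 to 0.13 for il13ra2, −0.24 to 0.22 for il15l, −0.30 to 0.018 for il17ra1b, −0.28 to 0.75 for il2, −1.53 to 0.37 for il23a and −0.75 to 0.0034 for il2rgb. IL17RD was −0.0048 with total-count scaling and −0.0076 in limma-voom, where ccl39.6 was −0.0041. The causes were not tested. Same-numbered C246X and WT libraries deviated together only weakly (r across genes 0.073, 0.048 and 0.055 for numbers 1, 2 and 3), so the numbers were not taken to pair the libraries, although each library correlated best with its own number. With the replicate block 3 members rose and 31 fell, 2285 genes rose and 2479 fell among all genes, and 2 pathway genes rose. Among the members the block lost the calls on il4r.1 (adjusted p = 0.067) and il7 (adjusted p = 0.0864) and gained CCR8 (0.0268), ccr2 (0.0335) and il1b (0.0316), all lower. In the lists it left 8 JAK, STAT and SOCS genes, 1 IL-1 processing gene and 0 atypical receptors that fell, and 0 lymphocyte markers that rose. The planned count test was not run, since the table holds scaled values. Members with a mean under 10 rest on few reads, and depth limits what can be seen there.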
